A study of Homo sapiens with 6 samples.

Results

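The 8 genes described here encode enzymes that make adenosine from nucleotides outside the cell, receptors that sense it and enzymes that remove it. They are ENTPD1, ENPP1, NT5E, ACPP, ADORA1, ADORA2B, ADA and ADK, and they are 8 of the 24494 genes with a symbol of their own in the deposited table. The set was chosen by pathway with earlier results of these data known, and ACPP and NT5E were selected on their higher values in the knockdown tumours, so their differences are descriptions without a test. Where the table lists a gene more than once, the brightest of its features (by mean over all 6 arrays) was used.

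RNA came from subcutaneous tumours of 1205Lu, a cell line established from a human melanoma metastasis. The tumours grew in NSG mice for some 6 weeks, a strain without functional T, B or natural killer cells. Tumour cells expressed a non-target short hairpin RNA in the control group (3 tumours) or a hairpin against Shp2 in the knockdown group (3 tumours), so both groups express a hairpin and share line and host. The labels name neither the hairpin sequence nor the number of clones. Nor do they say that the tumours of a group came from separate mice, and a p-value therefore reflects only how far these 6 samples spread. The comparison asks which transcripts differ when the phosphatase Shp2, the product of PTPN11, is depleted.

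Adenosine outside the cell is made stepwise. ATP that leaves stressed or dying cells is cut to AMP by CD39, the ENTPD1 product, or by ENPP1, and AMP is cut to adenosine by CD73, the NT5E product. Adenosine then acts on G protein-coupled receptors until it is taken up by nucleoside transporters, deaminated to inosine by ADA or phosphorylated back to AMP by ADK. In tumours the pathway is known for restraining T cells and natural killer cells, and CD73 is carried by many melanoma lines.

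Values are log2 GCRMA values, differences are knockdown minus control, and n is 3 tumours per group. Levels of different genes are not set against each other, since each feature has its own probes. Each value is instead set against the 95th percentile of 3575 negative control features on its own array, which was 5.90, 5.43 and 5.12 in control tumours 1, 2 and 3 and 5.43, 5.18 and 5.09 in knockdown tumours 1, 2 and 3. PTPN11 was 8.47, 8.76 and 9.05 in the control tumours and 6.92, 6.34 and 6.88 in the knockdown tumours. Its level fell by 2.05 on the log2 scale (SE 0.21), to 24.2% of control, with a limma adjusted p of 0.034 over the 12541 genes kept. An exact two-sided permutation test gave 0.1, the smallest p that 3 tumours against 3 allow. The limma adjusted p exceeded the threshold of 0.05, at 0.096 to 0.27, when control 2, control 3 or any 1 of the knockdown tumours was left out. It was also 0.079 with no filter, 0.084 with arrays centred on their median, 0.077 with quantile normalization, 1.00 with ordinary variance and 0.059 with a covariate added after the data were seen. Of 10 markers of melanoma and neural crest cells, S100B, AXL, CSPG4, S100A4 and SOX10 exceeded the control percentile in at least 3 arrays, while MITF, MLANA, PMEL, TYR and DCT did so in 0 arrays.

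The 8 genes differed in how well they were measured. NT5E, ADORA2B and ADK exceeded the negative control percentile in all 6 arrays, ENPP1 in 4, ACPP and ADA in 3, and ADORA1 and ENTPD1 in 0. The filter on low values required a log2 value above 4 in at least 3 arrays, and 7 of the 8 genes passed it. ADORA1 passed at the limit, with control 1, knockdown 2 and knockdown 3 above 4, so its presence in the test depended partly on the knockdown group. ENTPD1 lay below the filter in all 6 arrays and was not tested.

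**Figure D1:**
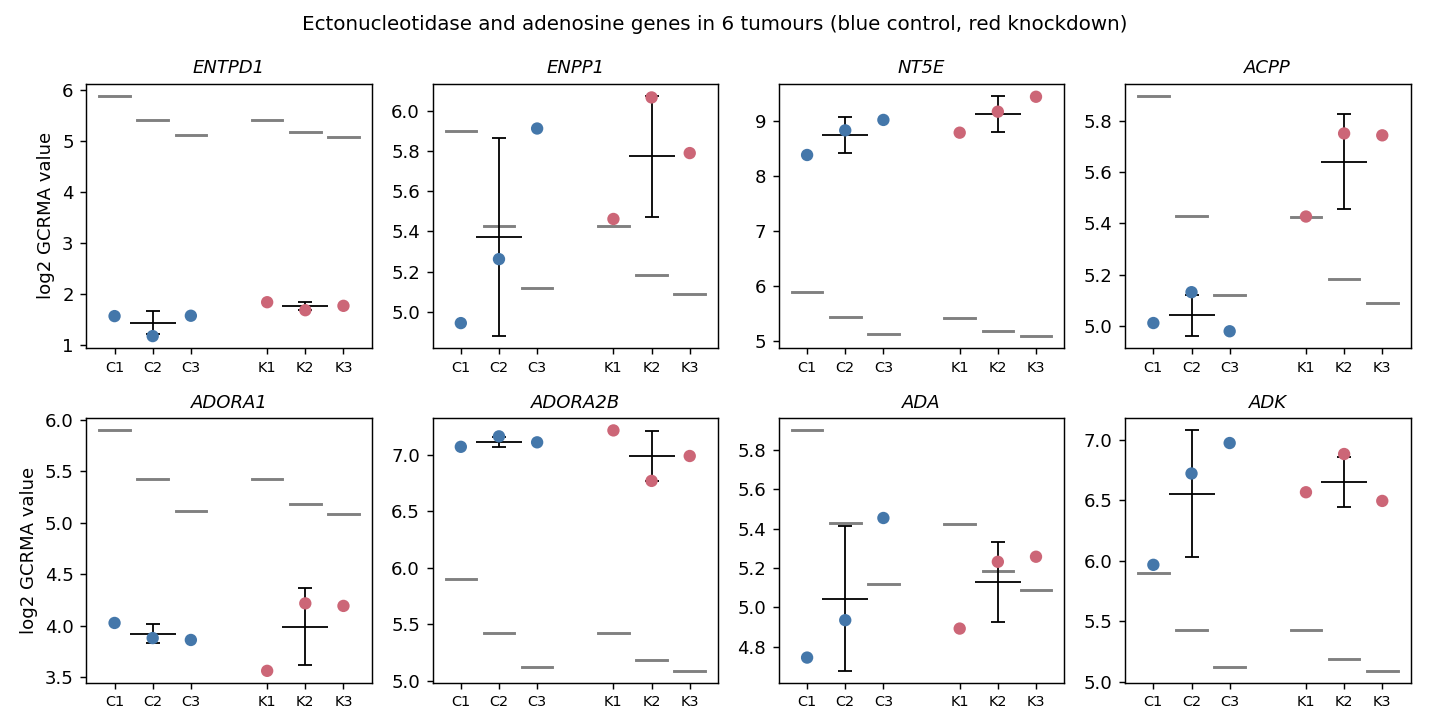
Log2 GCRMA values of the 8 genes in control tumours (C1 to C3, blue) and knockdown tumours (K1 to K3, red), with an axis of its own for each gene. Black marks are the group mean and SD (n = 3), and grey lines mark the 95th percentile of negative control features on each array. ACPP lies at 4.98 to 5.13 in control and 5.43 to 5.75 in knockdown tumours, and NT5E overlaps between the groups.

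The first enzymes of the cascade gave a low or variable signal. ENTPD1 was 1.57, 1.18 and 1.57 in the control tumours and 1.84, 1.68 and 1.77 in the knockdown tumours. All 6 values were far below the negative control percentile, so no level of the CD39 transcript was detectable and no difference is read from them. ENPP1, which cuts ATP to AMP and pyrophosphate and also degrades the STING ligand cGAMP, was 4.94, 5.26 and 5.91 in control tumours. Its values in knockdown tumours were 5.46, 6.07 and 5.79. The knockdown mean was 5.77 ± 0.30 (SD, n = 3) and the control mean 5.37 ± 0.49, but control 3 lay above 2 of the knockdown tumours and the groups overlapped. The difference of 0.40 (SE 0.26, 95% interval -0.17 to 0.98) did not pass the test (limma, adjusted p = 1.00, unadjusted p = 0.15). Control 1 and control 2 lay below the negative control percentiles of their arrays, 5.90 and 5.43. These 2 values are only bounded, and the size of the difference is uncertain for that reason too. Leaving out control 1, the lowest array, gave a difference of 0.19, and leaving out control 3 gave 0.67.

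NT5E encodes the enzyme that makes adenosine from AMP at the cell surface, and its transcript was well above background in every tumour. It was 8.38, 8.83 and 9.02 in the control tumours and 8.79, 9.17 and 9.44 in the knockdown tumours. Knockdown 2 and knockdown 3 lay above all control tumours, whereas knockdown 1 lay below control 2 and control 3, so the groups overlapped. The group means were 8.75 ± 0.33 in control and 9.13 ± 0.33 in knockdown tumours (SD, n = 3). Their difference of 0.39 (SE 0.22), or 1.31 times the control level, was smaller than the range within either group, 0.64 in control and 0.65 in knockdown tumours. Without control 1 the difference was 0.21, and without knockdown 1 it was 0.56. In bulk tumour RNA, a change in the number of cells that carry a transcript and a change in RNA per cell cannot be told apart.

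ACPP, now named ACP3, encodes prostatic acid phosphatase, whose transmembrane form also cuts AMP to adenosine in mouse sensory neurons. Its values were 5.01, 5.13 and 4.98 in the control tumours and 5.43, 5.75 and 5.74 in the knockdown tumours. Every knockdown tumour lay above every control tumour. The control mean was 5.04 ± 0.08 and the knockdown mean 5.64 ± 0.19 (SD, n = 3), a difference of 0.60 (SE 0.16). ACPP stayed below the negative control percentile in all control tumours and was above it in all knockdown tumours, by a narrow margin in knockdown 1 (5.427 against 5.426). The control values are therefore only bounded. With each raised to its array's percentile (5.90, 5.43 and 5.12, mean 5.48), the knockdown mean was 1.12-fold higher, a log2 difference of 0.16. That difference is no larger than the SE of the unraised values, and knockdown 1 itself lay at the percentile. No minimum fold is therefore read from it. Control 1 raised in this way lay above every knockdown tumour, so the raised groups overlapped and the 1.12 describes the means only. The difference was 0.55 without knockdown 2 and 0.71 without knockdown 1, the lowest and highest values with 1 array left out. Groups that did not overlap and were higher in knockdown were found for 3.86% of all genes kept, and since ACPP was chosen for this difference nothing is read from that share. The difference of NT5E and that of ACPP come from the same 6 tumours.

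The upstream sequences of both genes and of ADORA2B, the adenosine receptor gene detected in every tumour, are shown to compare their start regions. ADK, which also exceeded the negative control percentile in all 6 arrays, is not shown. All 8 genes matched the RefSeq promoter table (GRCh38.p14, 13 start sites). The 250 bases before each start were searched on both strands for TGACG, the core letters of the cAMP response element (CGTCA on the other strand), and for ACGTG, the core of the hypoxia response element (CACGT on the other strand). The 2 motifs can share bases where TGACGTG occurs. Capitals mark a match, all 3 stretches lie on the plus strand, and they are NT5E at chr6:85449833-85450082, ACPP at chr3:132317157-132317406 and ADORA2B at chr17:15944880-15945129.
NT5E: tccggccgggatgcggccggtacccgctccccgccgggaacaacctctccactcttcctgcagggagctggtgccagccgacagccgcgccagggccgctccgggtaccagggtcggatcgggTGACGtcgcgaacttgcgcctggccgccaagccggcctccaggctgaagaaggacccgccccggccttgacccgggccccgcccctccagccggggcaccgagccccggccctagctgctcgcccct
ACPP: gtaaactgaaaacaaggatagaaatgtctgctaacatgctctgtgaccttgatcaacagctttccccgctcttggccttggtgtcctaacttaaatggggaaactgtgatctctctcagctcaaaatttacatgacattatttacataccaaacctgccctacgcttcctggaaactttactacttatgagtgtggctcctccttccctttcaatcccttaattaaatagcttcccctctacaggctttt
ADORA2B: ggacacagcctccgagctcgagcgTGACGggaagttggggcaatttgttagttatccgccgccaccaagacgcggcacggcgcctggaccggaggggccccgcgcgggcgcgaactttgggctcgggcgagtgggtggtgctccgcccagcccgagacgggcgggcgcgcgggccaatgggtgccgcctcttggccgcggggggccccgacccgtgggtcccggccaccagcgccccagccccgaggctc
NT5E and ADORA2B each held 1 TGACG match, 127 and 226 bases before the start, and ACPP held none, against 21.2% of the 35116 promoters in the table with at least 1. None of the 3 stretches held ACGTG, which 18.5% of promoters held. The stretches also differ in composition. NT5E has 28 CpG dinucleotides and 75.2% G and C, ADORA2B has 33 and 75.2%, and ACPP has 2 and 42.0%, where the median promoter has 11 and 58.0%. Both motifs contain a CpG, and the shares over all promoters were not matched for CpG content. Of the start sites not shown, some of ENTPD1 and ADK held TGACG and some did not. Those of ENPP1, ADA and ADORA1 did not hold it, and ENPP1 held 1 ACGTG match, 217 bases before its start. A match is a string of letters and not a measured binding site.

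Of the receptors, ADORA2B exceeded the negative control features and ADORA1 did not. ADORA2B encodes a low-affinity receptor that couples to Gs and raises cAMP. It was 7.07, 7.16 and 7.11 in the control tumours and 7.22, 6.77 and 6.99 in the knockdown tumours. The control tumours lay within 0.09 of each other, and the knockdown tumours lay on both sides of them. The difference of -0.12 (SE 0.17, 95% interval -0.49 to 0.25) did not pass the test (limma, adjusted p = 1.00, unadjusted p = 0.48). It was -0.01 without knockdown 2 and -0.24 without knockdown 1. ADORA1, which encodes the Gi-coupled high-affinity receptor, was 4.03, 3.88 and 3.86 in control and 3.56, 4.22 and 4.19 in knockdown tumours, below the negative control percentile throughout. Its difference of 0.07 (SE 0.20) did not pass (limma, adjusted p = 1.00) and was negative, at -0.05 and -0.03, without knockdown 2 and without knockdown 3.

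The enzymes that remove adenosine gave differences near 0. ADA, the deaminase, was 4.75, 4.94 and 5.45 in the control tumours and 4.89, 5.23 and 5.26 in the knockdown tumours. The knockdown values lay inside the range of the control values, and the difference of 0.08 (SE 0.21, 95% interval -0.39 to 0.55) did not pass (limma, adjusted p = 1.00, unadjusted p = 0.70). ADK, the kinase that returns adenosine to AMP inside the cell, was 5.97, 6.72 and 6.98 in control and 6.57, 6.89 and 6.50 in knockdown tumours. Control 1 was the lowest of the 6 and control 3 the highest. The difference of 0.09 (SE 0.25, 95% interval -0.47 to 0.66) did not pass (limma, adjusted p = 1.00, unadjusted p = 0.72). Without control 1 it was -0.20 for ADK and -0.07 for ADA, so both changed sign on 1 array. A second ADK feature had a mean of 1.13 over the 6 arrays and was not used.

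Across the set, 0 of the 5 tested genes other than ACPP and NT5E passed the limma threshold, and 0 had an unadjusted p under 0.05. Over all genes kept, 1 of 12541 passed, 0.00797%, and 319, or 2.54%, had an unadjusted p under 0.05. Limma with array quality weights also called 0 of the 5. The ordinary per-gene test called 0 of all genes kept, PTPN11 included, so its result says nothing about the 5. Of the 5 differences 4 were positive with a median of 0.08, beside 62.0% positive and a median of 0.05 over all genes kept. The 95% intervals of the 5 differences reach from -0.49 to 0.98, so these arrays do not show that the genes were unaffected.

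**Figure D2:**
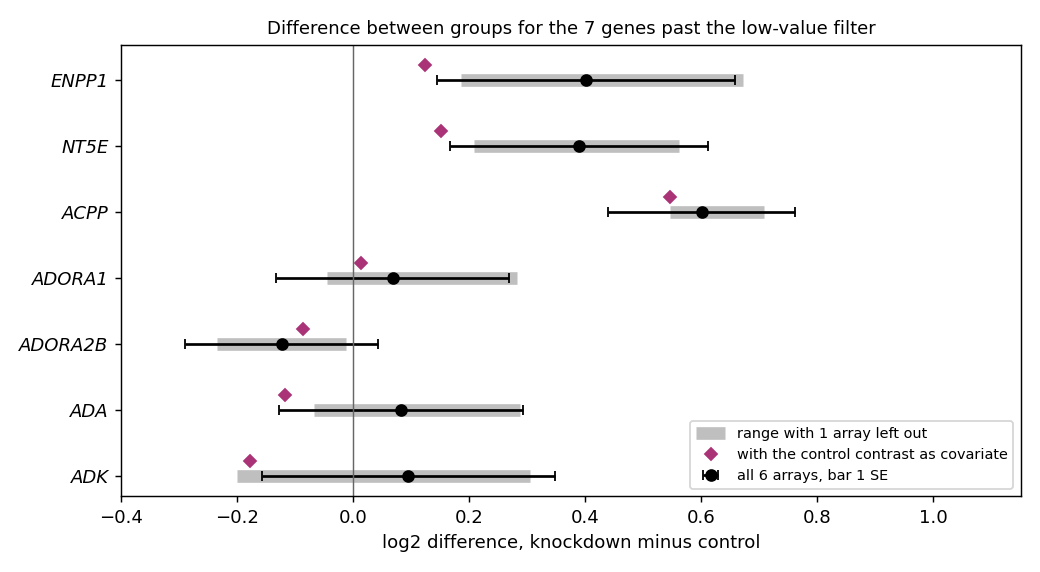
Log2 difference between knockdown and control tumours for the 7 genes past the low-value filter. Points are the fit over all 6 arrays with 1 SE, grey bars span the values with 1 array left out, and diamonds are the fit with the contrast of control features as a covariate. With 1 array left out, ADA, ADK and ADORA1 cross 0 and ACPP runs from 0.55 to 0.71. ACPP was chosen for its difference, so nothing is read from that range. Its control values lie below the negative control percentile.

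An array measure moved with several of these genes. The mean of positive control features minus that of negative ones was 3.45, 3.86 and 3.96 in control tumours 1, 2 and 3 and 3.76, 4.01 and 4.01 in knockdown tumours 1, 2 and 3. Control 1 had the lowest contrast and also the lowest value of NT5E, ENPP1, ADA and ADK. In a fit with this contrast as a covariate, added after the data were seen, the difference was 0.15 for NT5E and 0.12 for ENPP1. It was 0.55 for ACPP, -0.09 for ADORA2B, 0.01 for ADORA1, -0.12 for ADA and -0.18 for ADK. The part of the contrast in these differences was not tested further.

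Markers of host or stromal cells, which can carry CD39 and CD73, were mostly not detected. Of 8 endothelial markers in the table, ENG exceeded the negative control percentile in at least 3 arrays, and CDH5, VWF, KDR, TEK, TIE1, CLDN5 and ESAM did so in 0 arrays. Of 10 leukocyte and macrophage markers, CD68 did so and PTPRC, CD163, CSF1R, ITGAM, CD14, TYROBP, FCER1G, AIF1 and LYZ were below it in all 6 arrays. CD68, a lysosomal protein that melanoma cells can also express, was 6.72, 7.54 and 7.63 in control and 7.11, 7.67 and 8.36 in knockdown tumours. Its difference was 0.42 (SE 0.33), and that of ENG was 0.31 (SE 0.28). ENG had group means of 6.98 in control and 7.29 in knockdown tumours, and neither gene passed the limma threshold. Which cells carried CD68 or ENG was not tested. Of 9 fibroblast and pericyte markers, COL1A1 and PDGFRB exceeded the percentile, with group means of 7.90 against 7.86 and 6.89 against 6.92. For HBA1, HBA2, HBB and ALAS2, the red cell list, 0 of 4 did. The mean log2 value of the list ran from 3.83 to 3.99 in control and 3.78 to 4.08 in knockdown tumours for endothelial markers. It ran from 3.05 to 3.13 and 3.05 to 3.48 for leukocytes, from 4.04 to 4.37 and 4.07 to 4.30 for fibroblasts, and from 3.46 to 4.06 and 3.67 to 3.73 for red cells. The arrays are designed for human transcripts, and how far mouse RNA reaches these features was not tested.

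The rest of the pathway was followed in 8 lists with 106 genes, of which 103 were in the table and 63 passed the low-value filter. None of the 63 passed the limma threshold in either direction, and 2 had an unadjusted p under 0.05, against 2.54% of all genes kept. Those 2, P2RY1 and ADCY6, lay below the negative control percentile in every array. P2RY1 passed the low-value filter mainly through the control group, where it was high. Limma with array quality weights also called 0 of the 63. The ordinary per-gene test called 0 of all genes kept, so it says nothing about these genes. Positive differences numbered 39 and negative ones 24, with a median of 0.07 beside 0.05 over all genes kept. Groups did not overlap for 2 genes with higher and 3 with lower knockdown values, against 3.86% and 2.81% of all genes kept.

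Genes of ATP release gave 6 positive differences among 6, with a median of 0.18 and 0 past the test. The pannexin gene PANX1, a channel for ATP, was 5.72, 5.91 and 6.42 in control and 6.09, 6.45 and 6.55 in knockdown tumours. PANX2 differed by 0.30 (SE 0.16), with a gap of 0.00075 between the groups, and lay above the negative control percentile in 2 arrays, and ANKH, a membrane protein of ATP and pyrophosphate release, differed by 0.23 (SE 0.20). With 1 array left out the difference of PANX1 ran from 0.20 without control 1 to 0.55 without control 3, and that of ANKH from 0.08 without knockdown 3 to 0.40 without knockdown 1. Of 13 other surface and secreted enzymes of nucleotide or NAD breakdown, 3 passed the filter and ENPP2, ENPP3, CD38 and ALPL were among those that did not. BST1, an ectoenzyme that acts on NAD, was detected in all arrays at 7.31, 7.27 and 7.54 in control and 7.41, 7.71 and 7.43 in knockdown tumours, and its difference ran from 0.05 without knockdown 2 to 0.23 without control 3. ENTPD8 and ENTPD2 differed by 0.09 and -0.09, and neither exceeded the negative control percentile in any array.

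Inside the cell, 6 of 8 nucleotidase and NTPDase genes had positive differences (median 0.16, 0 past the test). NT5M, the mitochondrial nucleotidase, differed by 0.36 (SE 0.19) below the negative control percentile, while CANT1, a Golgi nucleotidase, and ENTPD7 differed by 0.24 (SE 0.22) and 0.18 (SE 0.16). With 1 array left out NT5M ran from 0.18 without control 1 to 0.50 without control 2, CANT1 from 0.03 without control 1 to 0.42 without control 3, and ENTPD7 from 0.08 without knockdown 2 to 0.25 without control 3. Among 13 genes of adenosine removal and adenylate handling, 9 differences were positive (median 0.11, 0 past the test). HPRT1, the purine salvage enzyme, was 7.35, 7.43 and 7.66 in control and 7.65, 7.80 and 7.83 in knockdown tumours, overlapping by the value of control 3. AHCY, which releases adenosine from S-adenosylhomocysteine, differed by 0.35 (SE 0.23) and its relative AHCYL1 by 0.30 (SE 0.20). The difference of AHCY was 0.15 without control 1 and 0.58 without control 3, and that of AHCYL1 0.16 without knockdown 3 and 0.44 without knockdown 1. Of 7 nucleoside transporters 4 passed the filter, with SLC29A2 at 0.19 (SE 0.22), SLC29A4 at -0.09 (SE 0.21) and SLC29A3 at -0.07 (SE 0.16), and the sodium-coupled carriers SLC28A1, SLC28A2 and SLC28A3 were below it.

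The other purine receptors gave little signal. Of 15 receptor genes with a feature in the table, only 4 passed the filter, and 0 exceeded the negative control percentile in at least 3 arrays. P2RY1, an ADP receptor, was 4.06, 4.86 and 5.05 in control and 3.17, 3.88 and 4.05 in knockdown tumours. Its groups did not overlap, by a margin of 0.0094 between control 1 and knockdown 3, and every value lay below the negative control percentile. It passed the low-value filter through the 3 control tumours and knockdown 3, so its presence in the test depended on the group where it was high. The difference of -0.96 (SE 0.30) did not pass (limma, adjusted p = 1.00, unadjusted p = 0.0092) and ranged from -1.26 without control 1 to -0.69 without knockdown 1. ADORA2A, the other Gs-coupled adenosine receptor, was 4.50, 4.41 and 4.30 in control and 4.12, 4.12 and 4.21 in knockdown tumours, also below that percentile. P2RX2, an ATP-gated channel, differed by -0.08 (SE 0.20).

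Downstream of the receptors, 9 of 15 coupling genes had positive differences with a median of 0.02. ADCY6, an adenylyl cyclase, was 3.96, 4.12 and 4.23 in control and 4.44, 4.52 and 4.50 in knockdown tumours, without overlap but below the negative control percentile. The difference of 0.39 (SE 0.15) did not pass (limma, adjusted p = 1.00, unadjusted p = 0.029). GNAS, an imprinted locus whose overlapping transcripts include that of the Gs alpha subunit, was 5.38, 5.12 and 5.25 in control and 4.68, 4.92 and 5.05 in knockdown tumours. Its groups did not overlap, but it exceeded the negative control percentile in only 1 array. Its difference of -0.37 (SE 0.17) had an adjusted p of 1.00 in limma. The Gi subunit gene GNAI3 differed by 0.29 (SE 0.18), and by 0.15 without control 1 and 0.41 without control 3. Of the 15 genes listed as cAMP-responsive, 10 passed the low-value filter. Of those 10, 5 differences were positive and 5 negative, with a median of 0.01 and 0 past the test. Among them PPARGC1A, a metabolic coactivator, differed by -0.32 (SE 0.22), CRTC2, a CREB coactivator, by 0.23 (SE 0.21) and the cAMP phosphodiesterase gene PDE4A by 0.27 (SE 0.31). Without control 1 the differences were -0.53 for PPARGC1A, 0.03 for CRTC2 and -0.08 for PDE4A. PPARGC1A was -0.17 without control 2, and without control 3 CRTC2 was 0.36 and PDE4A 0.60.

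**Figure D3:**
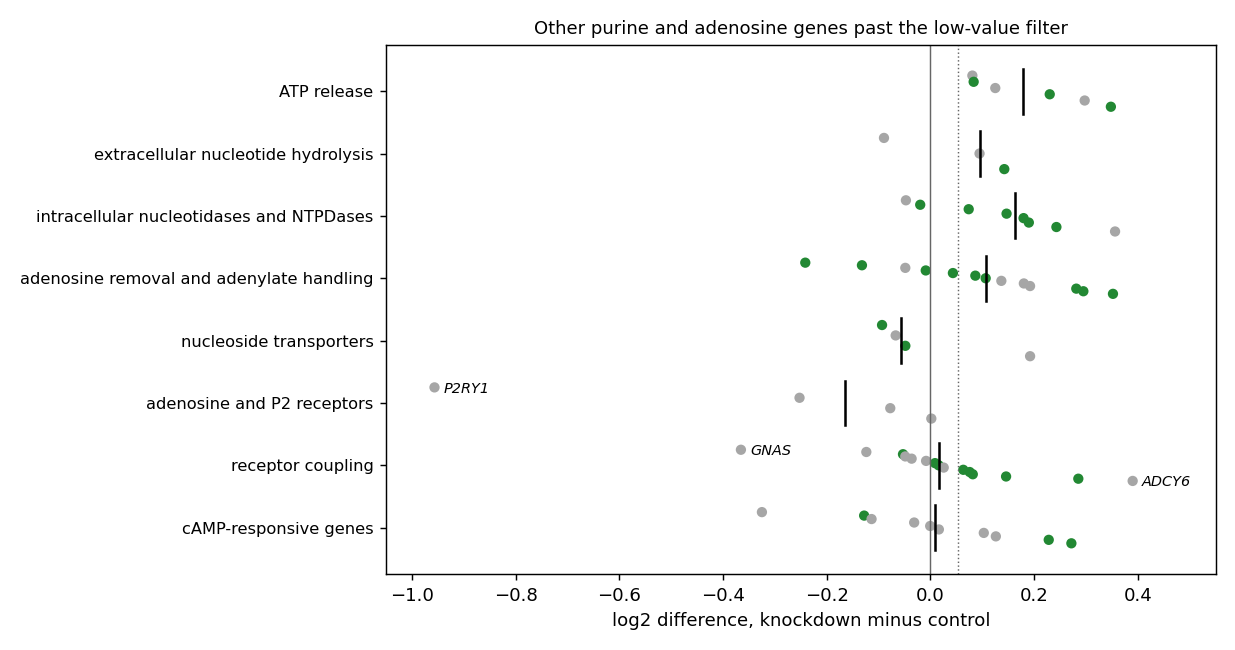
Log2 difference, knockdown minus control, of the 63 other pathway genes past the low-value filter, by list. Green points exceeded the negative control percentile in at least 3 arrays and grey points did not, black bars are list medians and the dotted line is the median of all genes kept (0.05). P2RY1 (-0.96), ADCY6 (0.39) and GNAS (-0.37) are grey.

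The profiles of NT5E and ACPP were also compared with those of all other genes kept, by the root mean square distance between log2 values over the 6 arrays after each gene was centred on its mean. NT5E lay closest to RALGDS, an exchange factor for RAL GTPases (0.04), to TOMM34, a chaperone cofactor of mitochondrial import (0.04), and to MAP1A, a microtubule-associated protein (0.04). ACPP lay closest to the interferon-induced SAMD9L (0.06), the stress kinase kinase MAP2K4 (0.06) and the small nucleolar RNA SNORA22 (0.08). MAP2K4 exceeded the negative control percentile in 0 arrays, RALGDS in 1, MAP1A in 2, SAMD9L in 4, and TOMM34 and SNORA22 in all 6. The distance between NT5E and ACPP was 0.24, and from NT5E to ENPP1 and ADA it was 0.21 and 0.20. With 12541 genes and 6 arrays, close profiles are found for many genes, and all share the same tumours. ACPP and NT5E were chosen on these same values, so genes close to them must show a similar difference between the groups. No shared function is read from the closeness.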

How the data were processed

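Total RNA of 6 tumours was labelled with biotin and hybridised to arrays, per the labels' protocols. GCRMA, named in the submitters' processing notes, was the authors' method for background, normalization and probe summary. For its version, the array design and the genome build, no value was given in the sources used here. No source states the base of the deposited values, which run from 0.05 to 13.3 and are taken as log2. The series value table equals the annotated table in every cell. Of 53617 features, 26419 carry 1 symbol, and features with several or none stayed out. Genes above 4 in at least 3 arrays were compared with limma 3.58.1 in R 4.3.3 (lmFit, eBayes, no covariate, two-sided, Benjamini-Hochberg over 12541 genes), which was checked on simulated data. The number of arrays limits the precision, with a median SE of 0.19. All 111 symbols of the members and lists found in the table are current symbols or synonyms in the RefSeq gene table.

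The members and lists were chosen with earlier results of these data known. Named genes are the members, the 3 genes of smallest p per list, the 3 highest markers per list (others only as detected or not) and the 3 closest profiles. The alternatives were other filters, rows per gene, tables, normalizations, variance models, the block and leaving out each array, and 2 were added after the data were seen.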

Additional observations from a re-analysis of the deposited data

How the results depend on the processing

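Of 20 alternatives, 18 were planned, and the count of tested members and of pathway genes past the threshold was 0 in each of them. The adjusted p of the 5 tested members ran from 0.63 to 1.00. ACPP, ENPP1, ADA and ADORA1 fell below the filter at 6, and ADORA1 also fell below the filter at the negative control percentile. Under these filters fewer than 5 members were tested. PTPN11 stayed negative in all, but its adjusted p exceeded 0.05 with no filter (-2.05), arrays centred on their median (-2.10), quantile normalization (-2.09), ordinary variance (-2.05) and the covariate for the control contrast (-2.13), and the count of genes called was 0 in each. It ran from -2.19 to -1.86 with 1 array left out, with 0 to 1 genes called. Without both arrays numbered 1, 2 genes were called, PTPN11 and SNORD113-3, and the cause was not tested. Deviations of same-numbered samples from their group means correlated at 0.42, -0.03 and 0.17 for numbers 1, 2 and 3, and not every sample correlated best with its own number, so the numbers were not taken as pairs. With the sample number as a block, 5 genes were called, PTPN11, MIR644A, SNORD113-3, SNORD114-2 and SNX29P2. None is a member or pathway gene, and all but PTPN11 are named after their values were seen.

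ADK was -0.0048 with array quality weights, -0.16 when the arrays numbered 1 were left out and -0.18 under the covariate, and ADA was -0.12 with the covariate. ENTPD2 was 0.017 with the weights, 0.17 without the arrays numbered 1 and 0.073 with the covariate. SLC29A4 and SLC29A3 were 0.16 and 0.016 without both arrays numbered 1. With the covariate CANT1 was -0.0027, CRTC2 -0.0029, PDE4A -0.12 and P2RX2 0.039. With 1 array left out, ADA ran from -0.067 to 0.29, ADK from -0.20 to 0.30, ADORA1 from -0.046 to 0.28, ENTPD2 from -0.21 to 0.13, P2RX2 from -0.23 to 0.062, PDE4A from -0.079 to 0.60, SLC29A2 from -0.048 to 0.37, SLC29A3 from -0.15 to 0.041 and SLC29A4 from -0.25 to 0.14. Under the mean of all rows ADK fell below the filter and has no value. Signal limits ENTPD1 and ADORA1, which exceeded the negative control percentile in 0 arrays. It also limits the 15 other purine receptor genes in the table, of which 0 exceeded that percentile in at least 3 arrays.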
